A study of Rattus norvegicus with 54 samples.

Results

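Fgfr1, Fgfr2 and Fgfr3 encode receptors for fibroblast growth factors (FGFs), and Fgf2 encodes one of their ligands. These 4 genes, out of 30560 in the count table, were followed through 54 RNA sequencing libraries from rat cortical neuron cultures. They were selected by Ensembl identifier and chromosome. Fgfr1 was picked because it was higher in cultures that overexpress Mbd3, so comparisons that use its values in those cultures are given as a description with no test. Its comparisons within control cultures were tested, although such a rise is measured against those controls. Fgfr2, Fgfr3 and Fgf2 were included as its relatives and its ligand and were tested. All 4 passed the filter on low counts, which left 17172 genes.

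The study asked how Mbd3, a methyl-CpG binding domain protein of the NuRD chromatin complex, acts in neurons made epileptiform in culture. Cells labelled as neurons came from the cortex of rat embryos at stage e18. Untransfected cultures received no virus. GFP cultures received an adeno-associated virus carrying GFP behind the SYN promoter, and rMBD3 cultures a virus carrying rMBD3 and GFP behind the same promoter. SYN is known as a neuron-selective promoter, so other cells in the dish would not be the intended targets of either transgene. Each construct was kept in standard medium with Mg or in medium without Mg, which the labels call epileptic, and was collected 2, 6 or 24 h after the change. This gave 18 groups of 3 libraries, numbered 1 to 3 by cell culture. The labels do not say whether the cultures were prepared from separate animals, and p-values measure the spread between these libraries.

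FGFs bind receptor tyrosine kinases on the cell surface together with heparan sulphate. Binding brings receptors together, activates their kinase domains and signals through adaptor proteins to the MAP kinase and PI3 kinase pathways. FGF2, also called basic FGF, leaves cells without a classical signal peptide and acts on neural progenitors, neurons and glia. In the cortex FGFR1 is known from progenitors and neurons, and FGFR2 and FGFR3 are known above all from progenitors and glia.

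Total counts ran from 14448927 to 39691105 per library, with a median of 26121000. Mitochondrial genes took 1.385 to 4.903% of counts. Reads carried no molecular identifiers, and the lowest count of any of the 4 genes in a library was 126, for Fgfr3, so counting error was small beside the spread between libraries. The count table names genes by identifier only, and 0 of its identifiers could be matched to the symbols of the reference at hand. Markers of neurons, astrocytes, oligodendrocyte-lineage cells, microglia and progenitors, and other genes of the FGF pathway, were therefore not analysed here, and the labelled cell type was not checked. For the same reason the Mbd3 gene was not identified, and the construct was not checked by it. The gene with the largest rise in rMBD3 cultures, ENSRNOG00000028956, chosen for that rise, was at 2291 to 18260 CPM there (counts relative to library size), against 113.2 to 268.7 in GFP cultures and 120.9 to 271.3 in untransfected cultures. In bulk RNA, more cells of a type and more RNA per cell cannot be told apart.

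The 4 genes lie on 4 chromosomes of mRatBN7.2, as the count table gives them. Fgfr1 (ENSRNOG00000016050) is at chr16:66494042-66547350 on the minus strand, with 3564 bases of exon. Fgfr2 (ENSRNOG00000016374) is at chr1:184745420-184850626, minus strand, with 4772 bases. Fgfr3 (ENSRNOG00000016818) is at chr14:76987993-77003341, minus strand, with 4294 bases. Fgf2 (ENSRNOG00000017392) is at chr2:120236328-120291221, plus strand, with 1318 bases.

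The RefSeq promoter table (GRCr8) held 3 of the 4 genes. Their 250 bases before the start of the gene are shown because MBD3 belongs to a protein family named for binding to methylated CG dinucleotides, and those dinucleotides are in capitals. No methylation was measured. The windows are chr1:194280915-194281164 (minus strand) for Fgfr2, chr14:81227210-81227459 (minus strand) for Fgfr3 and chr2:122164204-122164453 (plus strand) for Fgf2, each written 5′ to 3′ on the gene's strand.
Fgfr2: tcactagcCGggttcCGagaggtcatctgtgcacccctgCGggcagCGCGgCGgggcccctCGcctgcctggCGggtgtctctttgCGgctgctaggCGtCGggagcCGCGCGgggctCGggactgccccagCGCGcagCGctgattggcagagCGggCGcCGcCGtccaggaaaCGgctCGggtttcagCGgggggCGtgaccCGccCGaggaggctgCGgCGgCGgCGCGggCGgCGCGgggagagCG
Fgfr3: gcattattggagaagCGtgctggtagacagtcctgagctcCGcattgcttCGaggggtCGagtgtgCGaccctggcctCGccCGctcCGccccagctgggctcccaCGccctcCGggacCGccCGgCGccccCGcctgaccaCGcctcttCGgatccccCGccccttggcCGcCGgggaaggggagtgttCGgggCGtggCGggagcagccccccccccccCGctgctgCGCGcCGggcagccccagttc
Fgf2: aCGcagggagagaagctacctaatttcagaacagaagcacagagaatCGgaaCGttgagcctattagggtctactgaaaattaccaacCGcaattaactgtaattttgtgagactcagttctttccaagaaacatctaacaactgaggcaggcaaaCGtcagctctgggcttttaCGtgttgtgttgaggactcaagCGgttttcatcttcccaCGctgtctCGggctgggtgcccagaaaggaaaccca
The Fgfr2 window held 37 CG dinucleotides, more than 98.1% of the 33469 promoter windows of that length. The Fgfr3 window held 26, more than 91.4% of them. The Fgf2 window held 9, more than 61.5%, against a median of 5. By this count the 2 receptor windows were CG-rich, and the Fgf2 window was above the median but held fewer than either. Whether these windows hold the promoters in use in these cultures was not tested. A search on both strands covered 3 short motifs known from activity-regulated promoters, the cAMP response element TGACGTCA, the AP-1 site TGANTCA and the EGR site GCGTGGGCG, none of which contains another. None of the 3 windows held any of these letters, against 1.59%, 6.34% and 0.478% of all windows.

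Fgfr1, the receptor best known from neurons, was higher in rMBD3 cultures than in both kinds of control at every time and in both media. At 2 h with Mg it was at 494.6, 546.7 and 427.6 CPM in the 3 rMBD3 libraries, against 170.5, 233.4 and 204.3 in the GFP libraries and 293.0, 221.3 and 277.5 in the untransfected ones. At 2 h without Mg it was at 580.0, 530.2 and 449.5 CPM with rMBD3, 287.5, 190.8 and 240.6 with GFP, and 267.1, 204.1 and 206.7 without virus. In both media the lowest rMBD3 library stood well above the highest control library.

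At 6 h the gap was of the same direction and the controls were less even. With Mg, Fgfr1 was at 1043, 1245 and 970.7 CPM with rMBD3, at 302.7, 863.7 and 523.8 with GFP, and at 414.1, 672.6 and 433.9 without virus. The first GFP library was the lowest of the 18 libraries collected at 6 h. Without Mg, the rMBD3 libraries were at 861.2, 937.4 and 1032 CPM, the GFP libraries at 686.8, 729.8 and 671.2, and the untransfected ones at 571.7, 590.3 and 793.5. This was the condition with the smallest gap between rMBD3 and GFP.

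At 24 h with Mg, Fgfr1 reached 1200, 1134 and 1320 CPM with rMBD3, against 661.4, 599.0 and 548.2 with GFP and 736.1, 721.6 and 398.6 without virus. Without Mg it was at 1116, 1096 and 1221 CPM with rMBD3, at 707.6, 862.0 and 760.5 with GFP, and at 606.3, 654.7 and 646.6 without virus. In 6 of 6 conditions the rMBD3 libraries overlapped with neither control group, and in 18 of 18 same-numbered pairs of an rMBD3 and a GFP library the rMBD3 library was higher. Fgfr1 was picked for its rise in these same cultures, so these counts describe the choice and lend it no support. How many of all genes share them was not counted. The plot of Fgfr1 shows its level in each library.

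**Figure D1:**
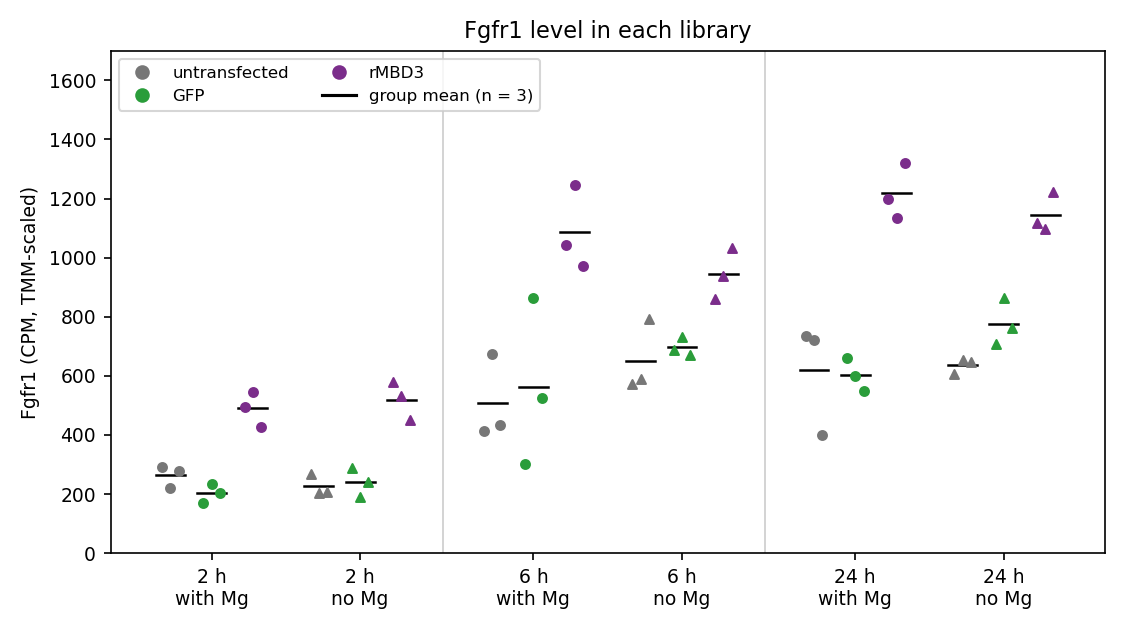
Fgfr1 level (CPM scaled by TMM, linear axis) in each of 54 libraries, by time, medium and construct; points are libraries, circles with Mg and triangles without Mg, and bars are means of 3. The rMBD3 libraries, between 427.6 and 1320 CPM, sit above both control groups within each time and medium.

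Averaged over the 6 conditions, Fgfr1 was 1.86-fold as high in rMBD3 as in GFP cultures, a log2 fold change of 0.89 ± 0.09 (SE of the fit to 54 libraries). Against untransfected cultures, which share the rMBD3 libraries with that comparison, it was 0.93 ± 0.09. By condition the log2 difference from GFP ran from 0.44 ± 0.23 at 6 h without Mg to 1.27 ± 0.23 at 2 h with Mg. The fitted difference was larger with Mg than without at each of the 3 times. Without Mg minus with Mg it was -0.155 at 2 h, -0.508 at 6 h and -0.456 at 24 h. The SE was 0.326 each time, and each 95% interval held 0. At 2 h replicate number 2 went the other way (0.247). At 6 h the value was -1.46 in number 1, against -0.166 and -0.269 in the others. These values chose the gene and are not tested. By its log2 fold change against GFP, Fgfr1 ranked 675 of 17172 genes.

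Ordered by level, Fgfr1 was highest in rMBD3 cultures at 24 h, with 1096 to 1320 CPM (median 1167, n = 6 over both media). The rMBD3 cultures at 6 h followed with 861.2 to 1245 CPM and overlapped them. GFP cultures at 24 h (548.2 to 862.0) and 6 h (302.7 to 863.7) and untransfected cultures at 24 h (398.6 to 736.1) and 6 h (414.1 to 793.5) overlapped one another and could not be ranked. The rMBD3 cultures at 2 h came next, at 427.6 to 580.0 CPM, inside the range of the later controls. Untransfected (204.1 to 293.0) and GFP (170.5 to 287.5) cultures at 2 h were lowest and below the other groups.

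The other 3 genes were higher with rMBD3 as well. In single conditions their libraries overlapped with those of GFP in some cases, and for Fgfr3 in each. All 3 passed the test against GFP when the 6 conditions were averaged (edgeR's quasi-likelihood test with Benjamini-Hochberg adjustment), where 11% of all genes passed and 6.41% passed as higher. They were chosen with earlier results of these data known. Against untransfected cultures 2 of the 3 passed, Fgfr2 and Fgf2, where 4.27% of all genes passed as higher.

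Fgfr2, a receptor with splice forms that prefer different FGFs, was at 72.87 to 139.3 CPM in rMBD3 cultures at 2 h (median 86.0, n = 6). It was at 23.35 to 52.26 with GFP (median 46.62) and 33.46 to 82.06 without virus (median 40.84). All 6 rMBD3 libraries were above all 6 GFP libraries at that time. At 6 h it ran from 99.18 to 186.3 CPM with rMBD3 (median 125.7), from 37.17 to 121.7 with GFP (median 95.92) and from 65.52 to 111.5 without virus (median 94.12). At 24 h it ran from 56.58 to 82.65 CPM with rMBD3 (median 65.13), from 37.66 to 62.17 with GFP (median 47.45) and from 26.69 to 60.98 without virus (median 51.54). At these later times the ranges overlapped.

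The averaged log2 fold change of Fgfr2 was 0.72 ± 0.12 against GFP (adjusted p = 0.000138, 1.65-fold). It was higher in 16 of 18 same-numbered pairs, and the 3 rMBD3 libraries stood above the 3 GFP libraries in 3 of 6 conditions. Counts of this kind, here and for Fgfr3 and Fgf2 below, were not made over all genes and describe these genes only. Against untransfected cultures the averaged log2 fold change of Fgfr2 was 0.66 ± 0.12 (edgeR adjusted p = 0.000227). Of the 3 tested genes it was the one whose rise past the threshold held in both comparisons without any 1 of the 3 replicate numbers, with an adjusted p of at most 0.0108 against GFP and 0.02 against untransfected cultures over the alternatives run.

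Fgfr3, a receptor known from astrocyte precursors, varied most between libraries of a group. At 2 h it ran from 17.76 to 80.3 CPM with rMBD3 (median 25.52), from 7.741 to 26.63 with GFP (median 13.84) and from 7.776 to 140.2 without virus (median 12.61). At 6 h the ranges were 38.8 to 87.7 (median 55.48), 29.92 to 47.75 (median 35.8) and 21.79 to 119.7 CPM (median 41.85). At 24 h they were 34.12 to 118.4 (median 86.28), 32.72 to 87.74 (median 38.92) and 32.06 to 76.24 CPM (median 61.34). The constructs overlapped at each time.

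Part of that spread went with the replicate number. At 2 h number 1 held the highest Fgfr3 value in 6 of 6 groups, at 22.09 to 140.2 CPM, whereas numbers 2 and 3 ran from 7.741 to 25.64. It was the highest in 5 of 6 groups at 6 h and in 2 of 6 at 24 h. The value of 140.2 CPM came from the first untransfected library with Mg at 2 h, whose group mates were at 11.32 and 13.9 CPM. Which cells or preparations differed was not tested, since markers were not analysed.

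Averaged over conditions, Fgfr3 rose by a log2 fold change of 0.92 ± 0.27 against GFP (adjusted p = 0.0226, 1.89-fold). The rMBD3 library was higher in 18 of 18 same-numbered pairs, although the 3 libraries of a group overlapped between constructs in 6 of 6 conditions. The call against GFP was lost without replicate number 2 (0.91, adjusted p = 0.121) or 3 (1.00, adjusted p = 0.188). Against untransfected cultures the difference was 0.31 ± 0.27 (adjusted p = 0.549), with a log2 difference of -0.28 in replicate number 1, 0.94 in number 2 and 0.78 in number 3. Without number 1 it was 0.85, with an adjusted p of 0.000481. Without the single library at 140.2 CPM it was 0.67 (adjusted p = 0.0672).

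Fgf2, the ligand, was at 20.32 to 31.35 CPM in rMBD3 cultures at 2 h (median 26.54), at 7.116 to 22.44 with GFP (median 15.18) and at 7.018 to 27.01 without virus (median 14.25). At 6 h it was at 56.58 to 96.24 CPM with rMBD3 (median 71.94), at 15.39 to 76.36 with GFP (median 55.04) and at 30.07 to 58.36 without virus (median 40.66). At 24 h it was at 15.27 to 36.37 CPM with rMBD3 (median 28.64), at 12.31 to 31.44 with GFP (median 17.9) and at 13.39 to 40.67 without virus (median 21.32). The gap between constructs was narrow beside the change from 2 to 6 h, and at 24 h the ranges overlapped almost in full.

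The log2 fold change of Fgf2 was 0.63 ± 0.17 against GFP (adjusted p = 0.0115, 1.55-fold). It was higher in 15 of 18 same-numbered pairs, and the groups did not overlap in 2 of 6 conditions. Against untransfected cultures it was 0.58 ± 0.17 (adjusted p = 0.0223). Both calls were lost without replicate number 2, at 0.70 (adjusted p = 0.0717) and 0.42 (adjusted p = 0.315), and without number 3, at 0.59 (adjusted p = 0.228) and 0.51 (adjusted p = 0.39). Without the first GFP library with Mg at 6 h, the lowest of its time for Fgfr1, Fgfr2 and Fgf2, the log2 fold changes against GFP were 0.85, 0.68 and 0.57, and those of Fgfr2 and Fgf2 still passed (adjusted p = 0.000222 and 0.0159). The plot of the 3 genes by library shows how much more their groups overlap than those of Fgfr1.

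**Figure D2:**
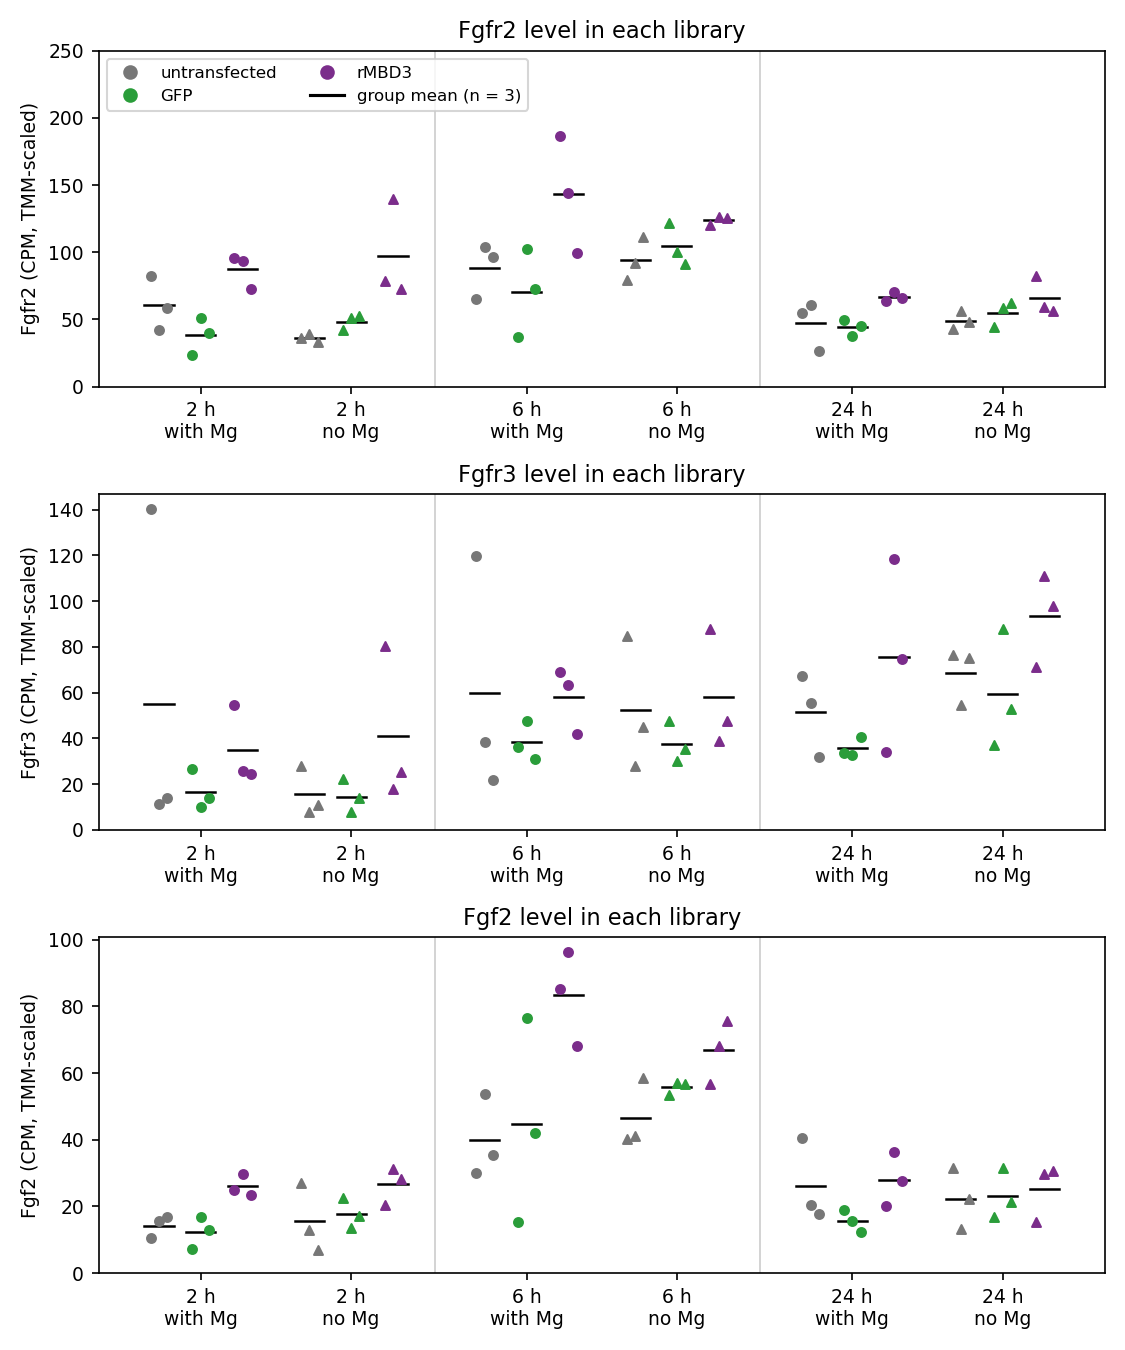
Fgfr2, Fgfr3 and Fgf2 levels (CPM scaled by TMM, linear axes that differ between panels) in each of 54 libraries, by time, medium and construct; circles are with Mg, triangles without Mg, and bars are means of 3. The 3 panels show overlapping groups, an Fgfr3 value of 140.2 CPM in 1 untransfected library at 2 h, and the 6 h maximum of Fgf2.

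Within single conditions none of the 18 tests of Fgfr2, Fgfr3 and Fgf2 against GFP passed (edgeR), and 7 had an unadjusted p under 0.05. Of 17172 genes, between 372 (6 h without Mg) and 2344 (24 h with Mg) had an unadjusted p under 0.05 in each comparison. In those comparisons 0.0116% of all genes passed at 2 h with Mg and at 6 h with Mg, 0.00582% at 2 h and at 6 h without Mg, 0.134% at 24 h with Mg and 0.0233% at 24 h without Mg. The smallest adjusted p was 0.213, for Fgfr2 at 2 h with Mg (1.19 ± 0.30). Against untransfected cultures Fgfr2 passed in 1 condition, 2 h without Mg, with a log2 fold change of 1.41 ± 0.30 (adjusted p = 0.0406), where 0.0815% of all genes passed. In the other 5 conditions, where it did not pass, 0.0233% (2 h with Mg), 0.221% and 0.0524% (6 h with and without Mg) and 1.17% and 0.122% (24 h with and without Mg) of all genes did. At 2 h without Mg the rMBD3 libraries held 78.48, 139.3 and 72.87 CPM and the untransfected ones 36.27, 39.52 and 33.46.

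The size of the difference from GFP moved with time and medium without a tested change. For Fgfr2 it was 0.66 smaller at 24 h than at 2 h on the log2 scale (SE 0.29). That of Fgfr1, not tested, was 0.41 smaller (SE 0.23). Over 19 tests of how an effect differed between media, times or control constructs, which leave out Fgfr1 wherever rMBD3 libraries enter, 0 passed in edgeR and 1 had an unadjusted p under 0.05. The smallest adjusted p was 0.574. The 1 was Fgfr2 in the rMBD3 effect at 24 h against 2 h, where 1405 of 17172 genes had an unadjusted p under 0.05. Of all genes, 0.0175% passed in the difference between 24 h and 2 h of the rMBD3 effect, and 0% in each of the other 5 comparisons. The plot of rMBD3 against GFP by condition shows the single differences.

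**Figure D3:**
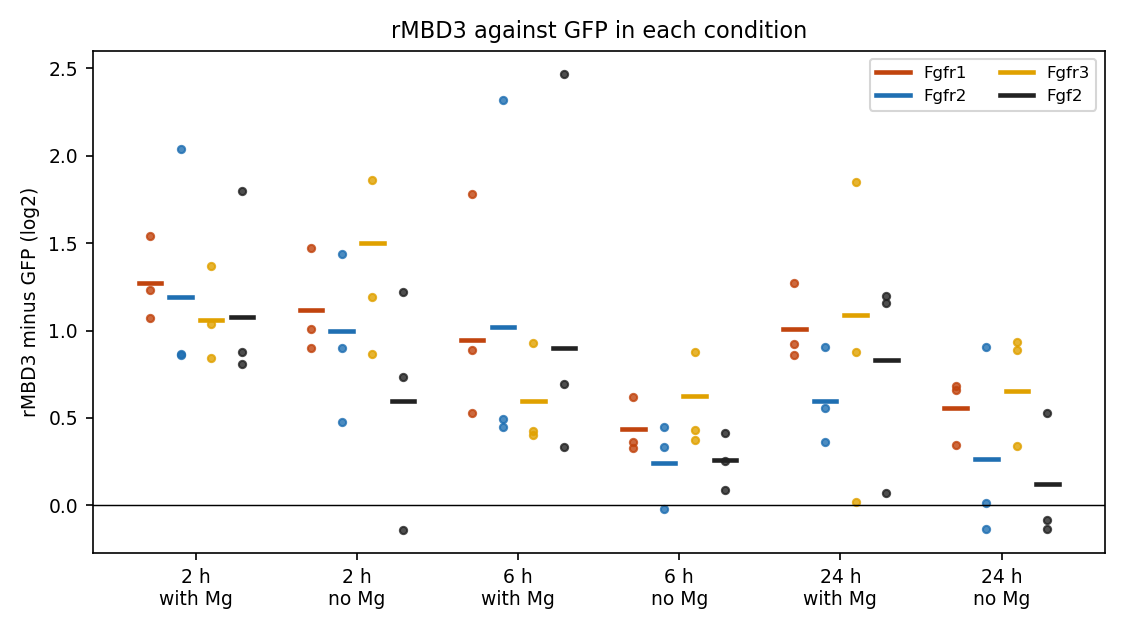
Log2 difference between rMBD3 and GFP for the 4 genes in each of 6 conditions; short bars are fitted log2 fold changes and points the log2 differences of the 3 same-numbered library pairs. The Fgfr1 bars run from 0.44 at 6 h without Mg to 1.27 at 2 h with Mg, and all 18 Fgfr1 points are above 0.

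The control virus gave no change of the 4 genes that passed the test. For Fgfr1 this test is not independent of its choice, since its rise is measured against these same control libraries. In GFP against untransfected cultures 0 of the 4 passed (edgeR), where 0.297% of all genes passed. Of the 4, 1, Fgfr3, had an unadjusted p under 0.05, as had 1730 of 17172 genes. DESeq2 called 0 of the 4. The averaged log2 fold change was 0.03 ± 0.09 for Fgfr1 (95% interval -0.15 to 0.22) and -0.06 ± 0.12 for Fgfr2 (-0.30 to 0.17). For Fgf2 it was -0.05 ± 0.17 (-0.38 to 0.28). Fgfr3 was at -0.61 ± 0.27 (95% interval -1.14 to -0.0856, unadjusted p = 0.0282, edgeR adjusted p = 0.406), with -1.22 in replicate number 1 and 0.02 and 0.06 in numbers 2 and 3. Without the library at 140.2 CPM it was -0.26 (adjusted p = 0.933).

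Removal of Mg, the treatment used to make the cultures epileptiform, changed none of the 4 genes past the threshold. Over the 6 pairs of conditions in untransfected and GFP cultures, 0 of 4 passed in edgeR, where 0% of all genes passed. There 1987 genes had an unadjusted p under 0.05, and none of the 4 had. Fgfr1 was tested only there, without the rMBD3 libraries in which it was picked. Over all 9 pairs, 0 of the 3 other genes passed in edgeR, with 0% of all genes passing, 1565 at an unadjusted p under 0.05 and none of the 3 among them. The 0% did not hold in every setting. With the replicate number as a single block, 0 of 17172 genes passed over the 9 pairs and 36 at 24 h. With the replicate number as a block at each time point, 429 of 17172 genes passed over the 9 pairs and 1186 at 24 h. DESeq2 called 10 of 21461 genes over the 9 pairs and 103 at 24 h. In each of these settings 0 of the 3 passed. For the medium, Fgfr1 was tested only in the fit without a block, so how its result depends on a block was not tested. Fgfr1 was at 170.5 to 546.7 CPM with Mg at 2 h (median 277.5, n = 9) and 190.8 to 580.0 without (median 267.1). At 24 h it was at 398.6 to 1320 CPM with Mg (median 721.6) and 606.3 to 1221 without (median 760.5). The media overlapped over nearly their whole range at both times.

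In untransfected and GFP cultures the log2 fold change of Fgfr1 without Mg against with Mg was 0.18 ± 0.09 (95% interval -0.0030 to 0.37, edgeR adjusted p = 0.446). Over all 9 pairs it was 0.06 ± 0.10 for Fgfr2 (-0.13 to 0.25). It was -0.06 ± 0.22 for Fgfr3 (-0.49 to 0.37) and 0.12 ± 0.14 for Fgf2 (-0.15 to 0.39). A change of 1 on the log2 scale lies outside each of these averaged intervals. For Fgfr3 at single times, over the 3 constructs, it does not always. That interval was -1.35 to 0.149 at 2 h, -0.811 to 0.671 at 6 h and -0.26 to 1.22 at 24 h. The fitted values at 2 and 24 h had opposite signs, -0.60 and 0.48. By construct and time, 0 of 33 tests passed in edgeR, 2 had an unadjusted p under 0.05, and the smallest adjusted p was 0.791; 0% of all genes passed in each of these 9 comparisons. Both unadjusted p under 0.05 were in untransfected cultures at 2 h, for Fgfr2 and Fgfr3, in the comparison that holds the library with 140.2 CPM of Fgfr3. There 225 of 17172 genes had an unadjusted p under 0.05.

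The change from 2 to 6 h was larger than the averaged medium difference for each of the 4 genes. Later steps were not always larger: from 6 to 24 h Fgfr1 changed by 0.127, against 0.182 for the medium in the same cultures. Time was compared in untransfected and GFP cultures only, since Fgfr1 was picked for its rise in the rMBD3 libraries. From 2 to 6 h all 4 genes rose, where 41.1% of all genes passed and 17.9% passed as higher. From 6 to 24 h Fgfr2 and Fgf2 fell, where 37% of all genes passed and 20% as lower, and Fgfr1 and Fgfr3 did not pass. At 24 h against 2 h, where 63% of all genes passed, Fgfr1, Fgfr3 and Fgf2 were higher, and 30.5% of all genes were. Fgfr2 did not pass.

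Fgfr1 went from 170.5 to 293.0 CPM at 2 h (median 227.4, n = 12) to 302.7 to 863.7 at 6 h (median 630.8) and 398.6 to 862.0 at 24 h (median 658.0). The 2 h range lay below both later ranges, which overlapped. Its log2 fold change was 1.37 ± 0.12 from 2 to 6 h (adjusted p = 1.07e-11) and 0.13 ± 0.12 from 6 to 24 h (adjusted p = 0.404). At 24 h against 2 h it was 1.5 ± 0.12 (adjusted p = 3.72e-14).

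Fgf2 had a peak at 6 h. It was at 7.018 to 27.01 CPM at 2 h (median 14.5), 15.39 to 76.36 at 6 h (median 47.68) and 12.31 to 40.67 at 24 h (median 19.69). It rose by a log2 fold change of 1.64 ± 0.21 from 2 to 6 h (adjusted p = 5.11e-08) and fell by 1.11 ± 0.21 from 6 to 24 h (adjusted p = 5.04e-05). A log2 difference of 0.54 ± 0.21 from 2 h remained at 24 h (adjusted p = 0.0227), which did not pass without replicate number 2 (0.61, adjusted p = 0.0567) or 3 (0.59, adjusted p = 0.107).

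Fgfr2 also had its highest median at 6 h. It was at 23.35 to 82.06 CPM at 2 h (median 42.07), 37.17 to 121.7 at 6 h (median 94.12) and 26.69 to 62.17 at 24 h (median 49.1). It rose by 0.98 ± 0.15 on the log2 scale from 2 to 6 h (adjusted p = 1.26e-06) and fell by 0.86 ± 0.15 from 6 to 24 h (adjusted p = 1.38e-05). The difference between 24 h and 2 h was 0.12 ± 0.15 (adjusted p = 0.509). The lowest 6 h value of Fgfr2, and that of Fgfr1 and Fgf2, came from the first GFP library with Mg.

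Fgfr3 followed Fgfr1 in its medians, with 13.82 CPM at 2 h (7.741 to 140.2, n = 12), 37.34 at 6 h (21.79 to 119.7) and 53.64 at 24 h (32.06 to 87.74). It rose by a log2 fold change of 1.11 ± 0.33 from 2 to 6 h (adjusted p = 0.00663). The change from 6 to 24 h was 0.18 ± 0.33 (adjusted p = 0.701). The difference of 24 h from 2 h was 1.29 ± 0.33 (adjusted p = 0.000952). Without replicate number 2 the first and the last were 0.90 and 0.91 (adjusted p = 0.112 and 0.0627), and without number 3 they were 1.08 and 1.11 (adjusted p = 0.108 and 0.0545), so neither passed. Without the single library at 140.2 CPM they were 1.65 and 1.81 (adjusted p = 2.62e-05 and 2.13e-06). Without number 1 they were 1.69 and 2.30, and the change from 6 to 24 h was 0.61 and passed (adjusted p = 0.00768). All 3 calls for Fgfr3 thus depended on which numbered cultures were used.

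In rMBD3 cultures the courses are given as values. Fgfr1 was 1.00 higher at 6 h than at 2 h on the log2 scale and 0.22 higher at 24 h than at 6 h. Fgf2 was 1.5 higher at 6 h than at 2 h and differed by -1.49 at 24 h against 6 h. Fgfr2 differed by 0.53 and then by -1.0, and Fgfr3 by 0.61 and then by 0.54. At 24 h against 2 h the log2 difference in rMBD3 cultures was 1.23 for Fgfr1, -0.47 for Fgfr2, 1.15 for Fgfr3 and 0.01 for Fgf2, and the controls above had 0.12 for Fgfr2 and 0.54 for Fgf2. The difference of this step between rMBD3 and GFP cultures was -0.66 for Fgfr2 (edgeR adjusted p = 0.574), -0.41 for Fgfr3 (adjusted p = 0.904) and -0.36 for Fgf2 (adjusted p = 0.839), none of which passed.

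**Figure D4:**
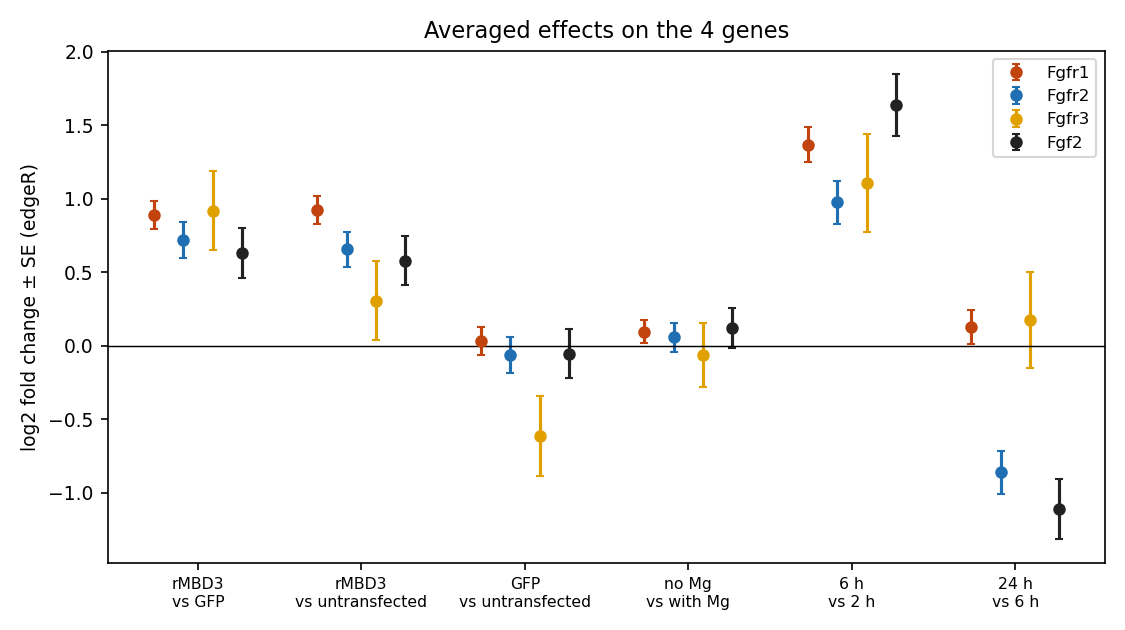
Averaged log2 fold changes (edgeR, ± SE) of the 4 genes in 6 comparisons; the rMBD3 comparisons, GFP against untransfected and medium use the libraries of all 3 times, and the time comparisons use untransfected and GFP cultures. Medium values pool all 3 constructs and run from -0.063 for Fgfr3 to 0.122 for Fgf2, with Fgfr1 shown untested. From 6 to 24 h Fgfr2 and Fgf2 sit at -0.86 and -1.11 while Fgfr1 and Fgfr3 sit at 0.13 and 0.18.

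Set against each other per length (CPM per kilobase of exon), Fgfr1 was the most abundant of the 4 in 54 of 54 libraries. Its median over all libraries was 169.1 CPM per kilobase, against 20.71 for Fgf2, 13.57 for Fgfr2 and 9.01 for Fgfr3. The median ratio of Fgfr1 was 9.793 to Fgfr2, 20.55 to Fgfr3 and 6.172 to Fgf2. Fgfr2 was above Fgfr3 in 36 of 54 libraries, so these neighbours had no fixed order. These ratios rest on the exon lengths of the annotation.

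Of the 3 receptors' summed CPM per kilobase, Fgfr1 made up 80.9% ± 9.15 (SD, n = 6) in untransfected cultures at 2 h and 88.0% ± 1.19 at 24 h. The untransfected libraries at 2 h ran from 62.3 to 85.8%, and the lowest was the one with 140.2 CPM of Fgfr3. In GFP cultures the Fgfr1 share went from 82.8% ± 1.57 to 90.1% ± 1.51, and in rMBD3 cultures from 83.5% ± 2.17 to 90.7% ± 2.13. Over the same time the Fgfr2 share went from 11.6% ± 1.78 to 5.00% ± 0.503 in untransfected, from 12.2% ± 2.96 to 4.85% ± 0.568 in GFP and from 11.4% ± 2.55 to 3.84% ± 0.647 in rMBD3 cultures. The Fgfr2 ranges at 2 and 24 h did not overlap in any construct. At 24 h the Fgfr2 share was 3.14 to 4.99% in rMBD3 libraries, 4.27 to 5.48% in GFP and 4.48 to 5.64% in untransfected ones, which overlap, as the plot of shares shows.

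**Figure D5:**
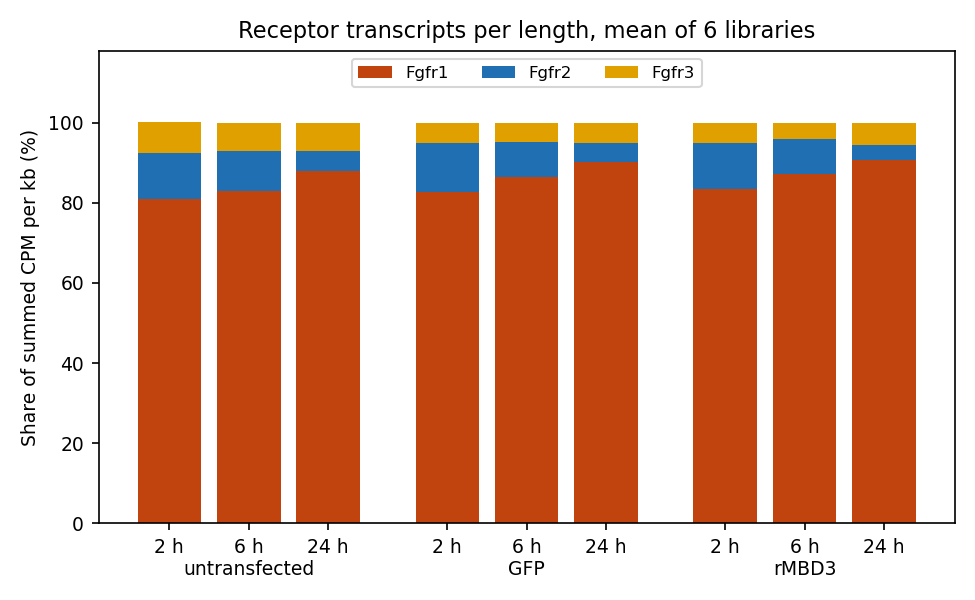
Mean share (%) of Fgfr1, Fgfr2 and Fgfr3 in their summed CPM per kilobase of exon, by construct and time (n = 6 libraries each, both media). The Fgfr2 share goes from 11.4 to 12.2% at 2 h to 3.84 to 5.00% at 24 h in each construct.

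Over the 18 groups, 2 pairs of genes had like patterns in their mean log2 CPM. Pearson's r was 0.92 for Fgfr1 with Fgfr3 and 0.90 for Fgfr2 with Fgf2, against 0.58 for Fgfr1 with Fgfr2. These points share libraries and the same time courses, and the values are descriptions. Within groups, over the deviations of 54 libraries from their group means, r was 0.69 for Fgfr1 with Fgfr2 and 0.68 for Fgfr1 with Fgf2. For Fgfr2 with Fgf2 it was 0.43. For Fgfr3 it was 0.23 with Fgfr1, 0.05 with Fgfr2 and 0.06 with Fgf2. Over the 54 libraries without removal of the group means, r was 0.70 for Fgfr1 with Fgfr3.

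Among 12170 genes with a mean log2 CPM of at least 1, the one whose group means were most like those of Fgfr1 was ENSRNOG00000008937 (chr13:47167789-47179384), with r = 0.984 over 18 group means. For Fgfr3 it was ENSRNOG00000002669 (chr10:59509726-59531345), with r = 0.977. Fgfr2 and Fgf2 had the same nearest gene, ENSRNOG00000019760 (chr16:7293470-7322540), with r = 0.941 and 0.967. The count table does not pair these identifiers with names.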

How the data were processed

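Per the labels' protocols, library preparation used a KAPA kit for stranded mRNA. The submitters' processing notes name Trim Galore, STAR, Salmon, SAMtools, featureCounts and DESeq2 with mRatBN7.2, whereas the protocols name rn6. The authors deposited raw read counts per gene, made, per the file headers, by featureCounts 2.0.0 from fragments on the reverse strand, with mapping quality of at least 3 and Ensembl release 105, and exon lengths, which were used for CPM per kilobase. A deposited table of log2 values was not used here.

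Groups were taken from the labels. Counts were filtered (filterByExpr, minimum count 10, minimum total 15), scaled by TMM and fitted with edgeR 4.0.16 in R 4.3.3, with 1 coefficient for each of 18 groups over 54 libraries and no block. Averaged comparisons weighted conditions equally. Benjamini-Hochberg adjustment covered 17172 genes, with a threshold of 0.05; the 95% intervals come from the fold change and its SE. Alternatives were DESeq2 1.42.0, other scalings, no filter, the replicate number as a block, the compared groups alone, and leaving out each replicate number. Leaving out either of 2 libraries that stood apart, and the medium in untransfected and GFP cultures alone, were chosen after seeing the data; the planned test of Fgfr1 over all 9 medium pairs was dropped because it used the rMBD3 libraries. Scripts were tested on simulated data. For likeness, genes needed a mean log2 CPM (prior count 1) of at least 1, and the nearest by Pearson's r over group means were named. The members and lists were chosen with earlier results of these data known. Promoters came from RefSeq (GRCr8).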

Additional observations from a re-analysis of the deposited data

How the results depend on the processing

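Fgfr1 kept a log2 difference from GFP of 0.85 to 0.97 and from untransfected cultures of 0.90 to 0.95 over 12 alternatives each. Fgfr2 passed in both comparisons under all of them. DESeq2, other scalings, no filter and the compared groups alone changed no call for the 4 genes. Leaving out replicate numbers did. Without 1 replicate number or 1 library, the log2 fold change against GFP was 0.82 to 1.00 for Fgfr3 and 0.57 to 0.70 for Fgf2 (0.59 to 0.70 over replicate numbers alone), and against untransfected cultures 0.088 to 0.85 and 0.42 to 0.87. For Fgfr3 it was 0.90 to 1.69 from 2 to 6 h, 0.91 to 2.30 from 2 to 24 h and 0.0064 to 0.61 from 6 to 24 h. For Fgf2 from 2 to 24 h it was 0.48 to 0.61 (0.52 to 0.61 over replicate numbers), and for Fgfr1 from 6 to 24 h it was -0.014 to 0.25. The cause was not tested.

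Some differences that passed in no setting changed sign. GFP against untransfected ran from -0.030 to 0.090 for Fgfr1, -0.12 to 0.030 for Fgfr2, -0.82 to 0.030 for Fgfr3 and -0.28 to 0.20 for Fgf2, which was at 0.0070 without the first GFP library with Mg at 6 h. Fgfr3 without Mg against with Mg ran from -0.184, in untransfected and GFP cultures alone, to 0.17. The latter left out the first untransfected library with Mg at 2 h, and the highest value otherwise was 0.06. The medium at 2 h gave -0.11 to 0.13 for Fgfr1, -0.20 to 0.011 for Fgfr2 (0.0040 without that untransfected library), -0.71 to 0.11 for Fgfr3 and -0.17 to 0.44 for Fgf2. At 6 h it gave -0.22 to 0.17 for Fgfr3 and -0.10 to 0.45 for Fgf2 (-0.05 without that GFP library), and at 24 h -0.10 to 0.25 for Fgf2.

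The replicate numbers were not treated as pairing the samples. Deviations from the group mean correlated at over 0.1 in 17 of 18 same-numbered rMBD3 and GFP pairs (mean r 0.25), in 25 of 27 pairs of media and in 3 of 12 pairs of times. With the replicate block Fgfr2 against GFP was 0.72 (adjusted p = 4.51e-05), Fgfr3 0.89 (0.00622) and Fgf2 0.64 (0.00721), and no call for the 4 genes changed. Genes called in rMBD3 against GFP went from 1886 to 2992 with this block, to 4083 with a block per time point, to 2468 without replicate number 1, to 508 without replicate number 2 and to 309 without number 3. From 2 to 6 h they went from 7061 to 8809, 3592 and 3623 without numbers 1, 2 and 3. A block per time point cannot be fitted for the time comparisons, and the medium averaged over 9 conditions has no smaller set of groups.

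With 3 libraries a group, differences within a condition were resolved least for Fgfr3, whose variation between libraries was 54% against 20.5% for Fgfr1 (biological coefficient of variation). Cell type markers were not analysed here, and exon lengths set the order of levels per length.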
